A study of Mus musculus with 8 samples.

Results

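The 8 genes described here encode the cytoplasmic actins (Actb and Actg1), the cofilins (Cfl1 and Cfl2), the profilins (Pfn1 and Pfn2) and the most abundant β-thymosins (Tmsb4x and Tmsb10) of the mouse. They were chosen by name, as the rows of the gene count table whose Ensembl identifier maps to these symbols, and are 8 of 22430 genes. All 8 passed the filter on low counts (a mean count over 5 across the libraries) and were among the 9375 genes tested between the ages. The counts come from nanopore (ONT) sequencing of brain RNA from 8 male C57Bl/6JRj mice, an inbred strain, with no transgene or treatment. The methods of the study name whole hemispheres as the tissue, while the sample labels name whole brain. The young adult group (6m, 6 months) and the aged group (24m, 24 months) each hold 4 mice, and each mouse gave 1 library. By the methods of the study the RNA passed through the pore directly, without amplification, while the sample labels describe a short-read poly(A) kit. Either tissue mixes many regions and cell types, so these values cannot tell fewer cells of a type from less RNA per cell.

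Actin exists as monomers and as filaments, and the exchange between them shapes dendritic spines, axonal growth cones and the processes of glia. Profilins bind monomers and deliver them to growing filament ends, cofilins sever and disassemble old filaments, and β-thymosins hold a reserve of monomers that cannot polymerise. Each of these roles is represented here by a pair of paralogs, and the families hold further members. Of the profilins and cofilins, 1 paralog is expressed broadly and the other is more restricted. The restricted ones are Pfn2, the profilin typical of neurons, and Cfl2, the cofilin typical of muscle.

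The coding sequences of these pairs are shown because the values below rest on assigning each read to 1 of 2 similar genes. Reads may also lie in the untranslated regions after the coding sequence, of 2068 bases in Pfn1 and 1322 bases in Pfn2. Those regions were not aligned within the pairs. The coding sequences of Actb and Actg1 were both 1128 bases long and 88.7% identical, with no identical run longer than 62 bases. The cofilins were 71.5%, the profilins 61.5% and the thymosins Tmsb4x and Tmsb10 70.4% identical. The first 120 bases of the actin and profilin coding sequences, and the whole 135 bases of the thymosins, are given 5′ to 3′ on the sense strand from the GENCODE annotation of GRCm39, with capitals at the bases that differ within the pair.
Actb: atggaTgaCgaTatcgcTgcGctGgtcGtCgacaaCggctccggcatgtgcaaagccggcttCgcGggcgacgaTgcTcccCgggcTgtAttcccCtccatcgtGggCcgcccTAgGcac
Actg1: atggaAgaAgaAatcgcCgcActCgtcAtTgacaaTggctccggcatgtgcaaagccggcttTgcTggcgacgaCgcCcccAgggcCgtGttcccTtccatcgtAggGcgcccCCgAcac
Pfn1: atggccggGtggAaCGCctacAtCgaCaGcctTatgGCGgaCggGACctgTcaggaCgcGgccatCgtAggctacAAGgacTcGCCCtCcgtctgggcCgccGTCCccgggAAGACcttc
Pfn2: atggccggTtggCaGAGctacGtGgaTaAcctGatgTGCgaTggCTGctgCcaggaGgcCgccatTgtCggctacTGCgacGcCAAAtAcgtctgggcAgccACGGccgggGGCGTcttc
Tmsb4x: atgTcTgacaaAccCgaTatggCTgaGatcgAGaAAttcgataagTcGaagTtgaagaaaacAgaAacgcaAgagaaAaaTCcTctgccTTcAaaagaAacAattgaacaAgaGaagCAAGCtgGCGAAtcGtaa
Tmsb10: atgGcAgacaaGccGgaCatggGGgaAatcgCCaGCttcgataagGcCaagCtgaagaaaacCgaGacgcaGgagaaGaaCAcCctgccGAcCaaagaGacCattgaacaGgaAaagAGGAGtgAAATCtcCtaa
Within the stretches shown, the actins differed at 22 bases, the profilins at 41 and the thymosins at 40.

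A further thymosin row has to be set beside Tmsb10. Tmsb10b (ENSMUSG00000091955, GRCm39 chromosome 7, 24561638 to 24562122, plus strand) is a copy of 1 exon and 485 bases, whose coding sequence matches that of Tmsb10 at 133 of 135 bases. In the next line capitals mark the bases of Tmsb10b that differ from Tmsb10.
Tmsb10b: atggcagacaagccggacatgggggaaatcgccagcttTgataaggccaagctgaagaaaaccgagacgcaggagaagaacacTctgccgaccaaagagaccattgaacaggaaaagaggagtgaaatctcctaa
Its row held 1195, 845, 1120 and 1166 counts in the young adult libraries and 839, 1003, 740 and 1438 in the aged libraries, between 1.03 and 1.08 times the counts of Tmsb10 in the same library. The reads behind the Tmsb10 row can thus not be assigned to 1 of the 2 loci, and the values of Tmsb10 below may hold reads of both. Actg1 has 7 near-identical annotated copies (at least 95% identical over at least 50% of its transcript), of which 5 are pseudogenes, and none of them is a row of the table. No such copy was found for the other 6 genes. Actg1, Cfl2, Pfn1 and Pfn2 also overlap annotated genes that are not rows of the table.

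Library totals were between 573152 and 1255424 counts, lowest in young adult replicate 2 and highest in aged replicate 4, so that 1 count was worth between 0.767 and 1.81 CPM (counts relative to the TMM-adjusted library size). The mean count of the 8 genes ranged from 42.8 for Cfl2 to 1540 for Cfl1. Every pair of libraries differed beyond the sampling noise of the counts, and all 8 were used as separate replicates. Aged replicate 1 stood furthest from its own age group. Its chi-square per degree of freedom over the genes was 2.82, 2.80 and 3.92 against aged replicates 2, 3 and 4. The other aged pairs had 1.29 to 1.89 and the young adult pairs 1.18 to 1.85. Of all tested genes, 1359 were changed (14.5%), 968 higher (10.3%) and 391 lower at 24m (4.17%), where changed means a Benjamini-Hochberg adjusted p (padj) of at most 0.05 from edgeR's quasi-likelihood test together with a log2FC of 0.58 or more in size, both as set by the study. With library sizes alone in place of TMM scaling the split was 1218 higher and 223 lower, and the median log2FC of all genes moved by 0.11.

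Of the 8 genes, 1 was changed between the ages, and it was Pfn2, at 1.88 times its young adult level. A second gene, Tmsb10, was lower at 24m with a padj under the threshold but below the fold change minimum. The other 6 genes did not pass the test. These counts, 1 of 8 changed and 2 of 8 with a padj of at most 0.05, stand beside 14.5% and 21.7% of all tested genes, and the median log2FC of the 8 genes was -0.002 beside -0.003 over all genes.

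**Figure D1:**
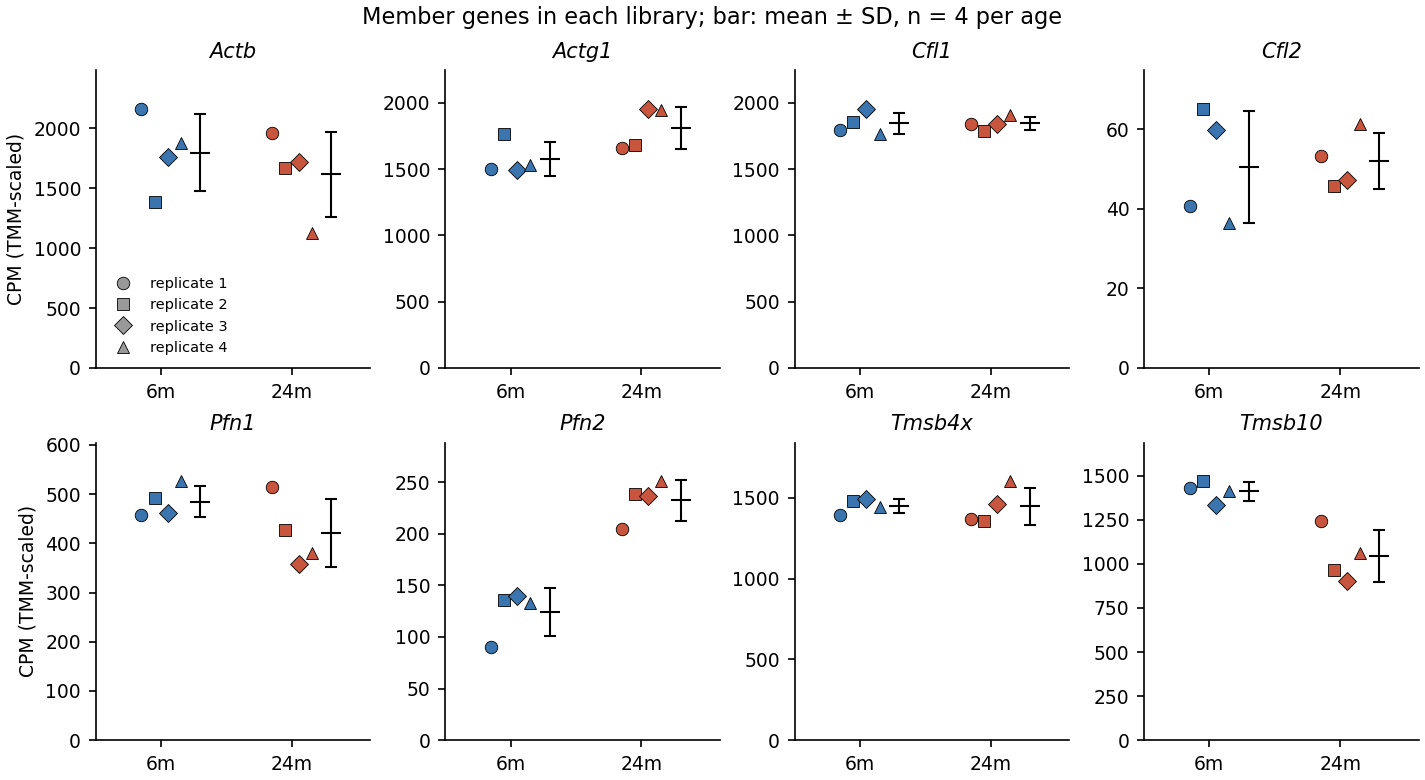
Each panel plots the CPM of 1 gene on a linear axis from 0, with 1 marker per library (young adult left, aged right, the marker shape giving the replicate) and the mean ± SD of the 4 libraries beside them. Pfn2 lay at or above 204.2 CPM in every aged library and at or below 139.4 CPM in every young adult library, Tmsb10 was separated in the other direction, and the other 6 genes overlapped between the ages.

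The profilins differed most in how they stood at the 2 ages. Pfn2 (ENSMUSG00000027805, GRCm39 chromosome 3, 57738719 to 57755519, minus strand) had 89.9, 135.6, 139.4 and 133.1 CPM in young adult replicates 1 to 4 and 204.2, 238.1, 236.7 and 250.8 CPM in aged replicates 1 to 4. All 4 aged libraries lay above all 4 young adult libraries, which was the case in either direction for 21.1% of all tested genes. The mean rose from 124.5 ± 23.2 to 232.5 ± 19.9 CPM (SD, 4 libraries per age), a log2FC of 0.91 (SE 0.13, 95% confidence interval 0.65 to 1.18, padj = 1.81e-05 from edgeR). Young adult replicate 1 was lowest, and without it the log2FC was 0.79 (padj = 0.000244 from edgeR). Pfn2 was changed in each of the 17 alternative settings tried, with a log2FC between 0.79 and 1.02. Of these settings, padj alone only drops the fold change minimum from the main fit and so could not alter this call. An antisense gene, Rnf13, shares 145 exon bases with Pfn2 but had a mean of 27.9 counts and a log2FC of 0.37 (padj = 0.235 from edgeR). Marker genes of neurons moved with Pfn2. All 7 had a higher level at 24m with a padj of at most 0.05, beside 12.3% of all genes, and 4 of them were changed, beside 10.3% of all genes that were changed and higher. Their summed level was 1351 to 1427 CPM in the young adult and 1870 to 2636 CPM in the aged libraries. By the same padj 4 of 6 oligodendrocyte, 5 of 10 tested microglial and 3 of 6 tested astrocyte markers were higher too. Lower by it were 2 astrocyte markers, all 5 blood genes and 1 marker each of endothelial cells, immature neurons and choroid plexus. The part of any cell type in the Pfn2 difference was not tested.

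Pfn1 (ENSMUSG00000018293, chromosome 11, 70540882 to 70545976, minus strand), the broadly expressed profilin, had 457.9, 491.8, 461.8 and 526.2 CPM in the young adult and 515.2, 427.3, 358.3 and 381.2 CPM in the aged libraries. Aged replicates 2 to 4 lay below every young adult library, and aged replicate 1 lay among them. The mean was 484.4 ± 31.7 CPM at 6m against 420.5 ± 69.3 CPM at 24m (SD, 4 libraries per age), with a log2FC of -0.21 (SE 0.104, 95% confidence interval -0.42 to 0.003, padj = 0.151 from edgeR). Without aged replicate 1 the log2FC was -0.30 (padj = 0.00755 from edgeR), still under the fold change minimum. The exons of Pfn1 share 1389 bases with the antisense gene Rnf167, which had a mean of 120 counts beside 370.0 for Pfn1 and a log2FC of -0.26 (padj = 0.142 from edgeR). The strand setting of the counting is not given in the sources used here, so the 2 genes may share reads.

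Within the libraries, the share of profilin counts that belonged to Pfn2 was 16.4%, 21.6%, 23.2% and 20.2% at 6m and 28.4%, 35.8%, 39.8% and 39.7% at 24m. For a single library the counting error of this share was moderate, with 95% Clopper-Pearson intervals from 13.1% to 20.2% in young adult replicate 1 and from 36.3% to 43.1% in aged replicate 4, which cover counting error only. The log2 ratio of Pfn1 to Pfn2 fell from 1.98 ± 0.268 to 0.85 ± 0.346 (SD, 4 libraries per age), so that Pfn1 outnumbered Pfn2 between 3.31-fold and 5.10-fold in the young adult libraries and between 1.51-fold and 2.52-fold in the aged libraries. The ages did not overlap, and the exact permutation test gave p = 0.029, the smallest value that 4 libraries against 4 allow (two-sided). Adjusted over the 4 paralog pairs this was 0.11, and a single pair at the smallest p cannot reach less.

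The thymosins, monomer-sequestering peptides, were the genes with the highest level per length. By mean CPM alone they stood below Cfl1, Actb and Actg1 at both ages. Tmsb10 (ENSMUSG00000079523, chromosome 6, 72934330 to 72935737, minus strand) had 1430.3, 1468, 1337 and 1411 CPM in the young adult and 1245, 966.9, 903.5 and 1063 CPM in the aged libraries. Every aged library lay below every young adult library, with aged replicate 1 closest to them. A separation in either direction was seen in 21.1% of all tested genes. The mean fell from 1412 ± 55.3 to 1045 ± 149.0 CPM (SD, 4 libraries per age), a log2FC of -0.44 (SE 0.0941, 95% confidence interval -0.63 to -0.24, padj = 0.00182 from edgeR), or 0.739 of the young adult level. Over all tested genes, 9.42% were lower with such a padj and no fold change minimum. The padj stayed at 0.0205 or less in all 18 alternatives, where the log2FC was between -0.52 and -0.27. Of these, padj alone reuses the main fit. The Tmsb10b row had a log2FC of -0.42 (padj = 0.00187 from edgeR), and the sum of both rows had -0.43 (padj = 0.00197 from edgeR).

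Tmsb4x (ENSMUSG00000049775, chromosome X, 165990089 to 165992311, minus strand), which encodes thymosin β4, had 1395, 1479, 1489.8 and 1442 CPM in the young adult and 1367, 1356, 1459 and 1602 CPM in the aged libraries. Aged replicate 4 was the highest and aged replicate 2 the lowest of the 8, with the young adult libraries between them. The log2FC was -0.004 (SE 0.0847, 95% confidence interval -0.18 to 0.17, padj = 0.982 from edgeR), and its sign depended on the setting. The interval lies well inside the fold change minimum in both directions.

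Both thymosin transcripts are short, at 768 bases for Tmsb4x and 836 bases for Tmsb10. Short transcripts had a negative median log2FC in these libraries, at -0.20 over the 597 tested genes whose canonical transcript is under 1000 bases. It was -0.10 for the 1804 genes from 1000 to under 2000 bases. For the 2045 genes from 2000 to under 3000 bases it was 0.02, and for the 4903 longer genes 0.08. Of the 597 short genes, 6.20% were changed and higher and 3.85% changed and lower, beside 10.3% and 4.17% of all tested genes. Tmsb10 lay below the median of the short genes, with 14.2% of them lower still, and Tmsb4x above it, with 76.0% of them lower. The part of transcript length in the Tmsb10 difference was not tested. Pfn2, whose transcript has 2361 bases, lay higher than 94.4% of the genes of its own length class.

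The counts of Tmsb4x and Tmsb10 were nearly equal at 6m, with Tmsb10 holding 50.6%, 49.8%, 47.3% and 49.5% of their sum. At 24m Tmsb10 held 47.7%, 41.6%, 38.2% and 39.9%. Aged replicate 1 thus lay within the young adult range, and the other aged libraries lay below it. The log2 ratio of Tmsb4x to Tmsb10 was 0.04 ± 0.0824 at 6m and 0.48 ± 0.242 at 24m (SD, 4 libraries per age), a difference of 0.44 that gave p = 0.057 by the exact permutation test (two-sided) and 0.11 adjusted over the 4 pairs. Without aged replicate 1 the difference was 0.55, with p = 0.029 by the same exact test and 0.057 adjusted over the 4 pairs. With Tmsb10b added to Tmsb10 the difference was 0.43.

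**Figure D2:**
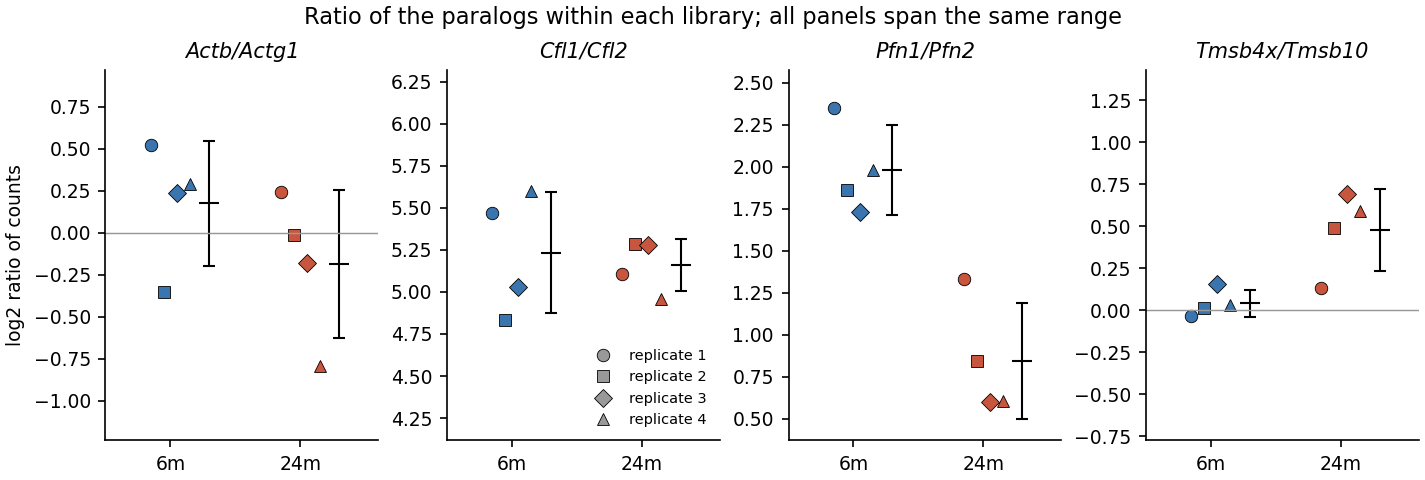
Each panel plots the log2 ratio of the raw counts of 2 paralogs within each library, with young adult libraries left, aged libraries right and the mean ± SD beside them (n = 4 per age), and all panels cover the same number of log2 units. The Pfn1/Pfn2 ratios of the 2 ages do not overlap (1.73 to 2.35 against 0.60 to 1.33), those of Tmsb4x/Tmsb10 touch at aged replicate 1, and those of the actins and cofilins overlap widely.

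The actins did not pass the test, and Actb varied more between libraries of the same age than Actg1. Actb (ENSMUSG00000029580, chromosome 5, 142888870 to 142892509, minus strand), β-actin, had 2160.2, 1381, 1761 and 1877 CPM in the young adult and 1962, 1669, 1719.9 and 1122 CPM in the aged libraries. Young adult replicate 2 and aged replicate 4 were low, and they were also the libraries with the lowest and the highest total. The log2FC was -0.16 (SE 0.13, 95% confidence interval -0.42 to 0.11, padj = 0.423 from edgeR) and turned to 0.004 without aged replicate 4 (padj = 0.988 from edgeR). The SD of log2 CPM within the ages was 0.31 for Actb, above that of 97.2% of the 287 genes with a mean count of at least 500, a comparison chosen after the values were seen.

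Actg1 (ENSMUSG00000062825, chromosome 11, 120236512 to 120239617, minus strand), γ-actin, had 1503, 1763, 1495 and 1534 CPM in the young adult and 1658, 1683, 1953 and 1943 CPM in the aged libraries. Aged replicates 3 and 4 lay above every young adult library, and young adult replicate 2 lay above aged replicates 1 and 2. The mean was 1574 ± 127 CPM at 6m against 1809 ± 160 CPM at 24m (SD, 4 libraries per age), with a log2FC of 0.20 (SE 0.0896, 95% confidence interval 0.02 to 0.39, padj = 0.106 from edgeR). The padj dropped under the threshold without aged replicate 1 (log2FC 0.25, padj = 0.00649 from edgeR), with library sizes alone (log2FC 0.31, padj = 0.0113 from edgeR), with more than 5 counts required in every library (log2FC 0.25, padj = 0.0352 from edgeR) and with DESeq2 on quantile-normalized counts (log2FC 0.38, padj = 0.00477), while the log2FC never reached the fold change minimum. The within-age SD of Actg1 was 0.12, above that of 48.1% of the same 287 genes.

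Actb made up 59.0%, 43.9%, 54.1% and 55.0% of the actin counts at 6m and 54.2%, 49.8%, 46.8% and 36.6% at 24m. The 2 genes thus contributed similar numbers of reads, and either could be the more abundant in a mouse of either age. The log2 ratio of Actb to Actg1 was 0.17 ± 0.372 at 6m and -0.19 ± 0.44 at 24m (SD, 4 libraries per age), and the exact permutation test gave p = 0.29 (two-sided; 0.38 adjusted over the 4 pairs). In single libraries the 95% Clopper-Pearson interval of the Actb share was as narrow as 35.1% to 38.2% (aged replicate 4).

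The cofilins Cfl1 and Cfl2 did not differ detectably between the ages. Destrin (Dstn), a related gene outside the 8, had a log2FC of 0.47 (padj = 0.0143 from edgeR), under the fold change minimum. Cfl1 (ENSMUSG00000056201, chromosome 19, 5540483 to 5545229, plus strand), the cofilin of non-muscle cells, had 1797, 1859, 1953 and 1768 CPM in the young adult and 1839.8, 1787, 1839 and 1911 CPM in the aged libraries. The 8 libraries lay close together, and all the aged values fell inside the young adult range. The mean was 1844 ± 81.7 CPM at 6m against 1844 ± 50.7 CPM at 24m (SD, 4 libraries per age), with a log2FC of 0.0003 (SE 0.0818, 95% confidence interval -0.17 to 0.17, padj = 0.999 from edgeR). Its within-age SD of log2 CPM was 0.053, and 3.48% of the 287 abundant genes had a lower one. A log2FC of 0.20 was obtained with DESeq2 on quantile-normalized counts, again without passing the test. The antisense gene Snx32 shares 1027 exon bases with Cfl1 and had a mean of 70.8 counts.

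Cfl2 (ENSMUSG00000062929, chromosome 12, 54905587 to 54909886, minus strand), the muscle-type cofilin, had 40.6, 65.1, 59.7 and 36.4 CPM in the young adult and 53.3, 45.7, 47.3 and 61.4 CPM in the aged libraries. With between 29 and 80 counts per library it was the least abundant of the 8 genes, and the aged values lay within the range of the young adult ones. The log2FC was 0.08 (SE 0.187, 95% confidence interval -0.30 to 0.47, padj = 0.799 from edgeR). This interval was wider than that of Cfl1 and ended short of the fold change minimum in both directions. Cfl2 held 2.65% ± 0.641 of the cofilin counts at 6m and 2.73% ± 0.292 at 24m (SD, 4 libraries per age). The log2 ratio of Cfl1 to Cfl2 differed by -0.07 (exact permutation test, two-sided, p = 0.71; 0.71 adjusted over the 4 pairs).

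**Figure D3:**
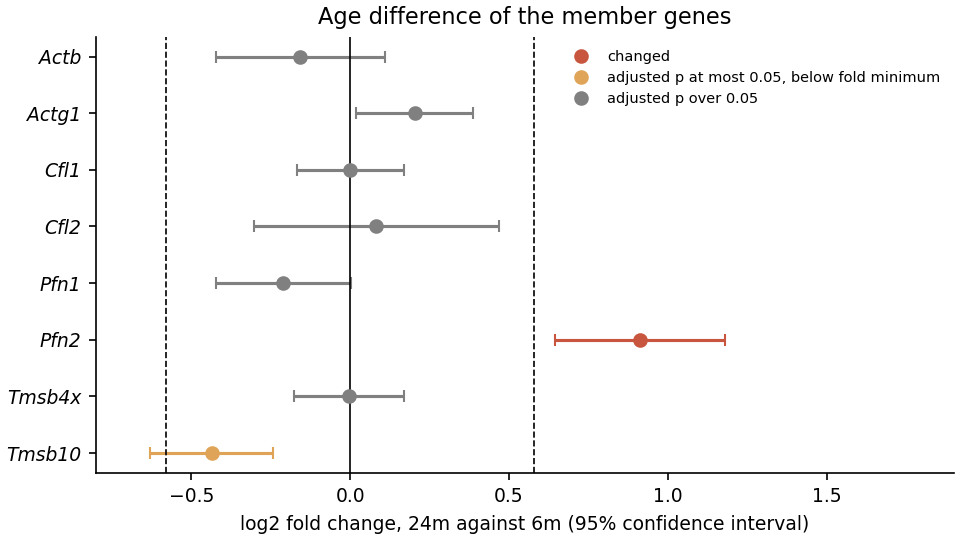
Points give the log2FC of each gene (24m against 6m) and bars its 95% confidence interval from edgeR, with dashed lines at the fold change minimum of 0.58 in both directions. The interval of Pfn2 (0.65 to 1.18) lies wholly beyond the line, that of Tmsb10 (-0.63 to -0.24) lies wholly below 0 and crosses the line, and those of Tmsb4x and Cfl1 are centred near 0.

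To compare levels between the genes, CPM were divided by the length of the reference transcript in kb. This division takes counts to grow with transcript length, which was not tested for these long reads, and it raises short transcripts. At 6m the order was Tmsb4x (1889.7 ± 56.1 CPM per kb), Tmsb10 (1689 ± 66.1), Actb (934.9 ± 168), Cfl1 (783.4 ± 34.7), Actg1 (715.0 ± 57.8), Pfn1 (182.2 ± 11.9), Pfn2 (52.7 ± 9.84) and Cfl2 (15.9 ± 4.43; CPM per kb, SD, 4 libraries). Actb could not be separated from Cfl1, nor Cfl1 from Actg1, since their library ranges overlapped, and all other neighbours were separated. At 24m the order was the same except that Actg1 (822.0 ± 72.8 CPM per kb) stood above Cfl1 (783.4 ± 21.5 CPM per kb), with Actb, Actg1 and Cfl1 again overlapping with their neighbours. In the aged libraries Tmsb4x (1883 ± 148 CPM per kb) and Tmsb10 (1249.6 ± 178 CPM per kb) were further apart than in the young adult ones. By mean CPM without this division the order differed. At 6m it was Cfl1, Actb, Actg1, Tmsb4x, Tmsb10, Pfn1, Pfn2 and Cfl2, and at 24m Actg1 stood above Actb.

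Together the 8 genes held 0.843% ± 0.0106 of all gene counts at 6m and 0.877% ± 0.0134 at 24m (SD, 4 libraries per age). The young adult libraries lay between 0.833% and 0.854% and the aged ones between 0.865% and 0.896%, without overlap (exact permutation test, two-sided, p = 0.029, the smallest possible). This direction depended on the denominator. Without the mitochondrially encoded genes the difference shrank from 0.0349 to 0.0178 percentage points (p = 0.0857 by the same exact test), and on the TMM scale the summed level was 8643 to 8873 CPM at 6m and 8173 to 8845 CPM at 24m.

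The genes whose log2 CPM followed each member most closely over the 8 libraries were sought among the 1451 genes with a mean count of at least 100, as a description in which age and library are shared by all points. The closest to Pfn2 were Fkbp1a (Pearson's r = 0.987), which encodes an immunophilin, and Tsc22d1 (r = 0.979), and Tsc22d1 was itself changed (log2FC 0.74, padj = 6.53e-05 from edgeR). The closest to Tmsb10 were its copy Tmsb10b (r = 0.998) and Maged1 (r = 0.990, log2FC -0.36, or -0.20 with DESeq2 on quantile-normalized counts). Pfn1 was followed by Atp6v1f (r = 0.972), a subunit of the vacuolar proton pump, and by Abcf2 (r = 0.950). Actb was closest to Yipf3 (r = 0.956) and Anapc11 (r = 0.908), Actg1 to 6330403K07Rik (r = 0.907) and Ppp2ca (r = 0.905), and Tmsb4x to Ppp2cb (r = 0.920) and Arpc5l (r = 0.868), an isoform of an Arp2/3 subunit. Cfl1 and Cfl2 had the same 2 genes, Rab3b (r = 0.930 and 0.897) and Hnrnpk (r = 0.874 and 0.871).

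The genes that act on actin beside these members were taken from 12 lists with 180 genes, of which 144 were tested. Of these, 12 were changed and higher at 24m and 3 were changed and lower, which is 10.4% of the tested genes beside 14.5% of all genes. Their median log2FC was 0.10 beside -0.003 over all genes. With library sizes alone the counts were 21 higher and 2 lower, and without a filter on low counts 18 higher and 5 lower. Of the genes named in the next paragraphs, Acta1, Coro1c, Arpc1a, Wipf3, Brk1, Evl, Capzb, Sptb, Myo5a, Myl6 and Cct4 share exon bases with an antisense gene. Tmsb15b2, Pdxp, Add1 and Pfdn5 share them with a gene on the same strand, and reads on those bases may not belong to 1 gene alone.

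**Figure D4:**
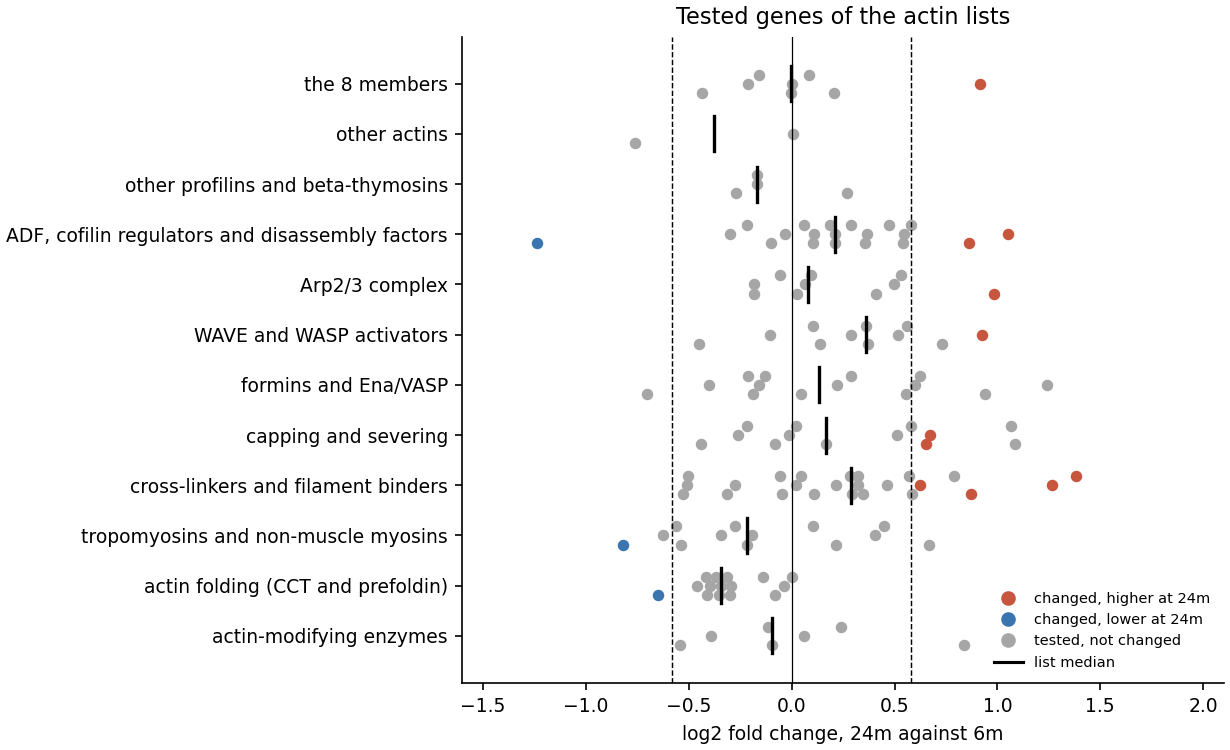
Each point is the log2FC (24m against 6m) of 1 tested gene, by list, with red for changed and higher, blue for changed and lower and grey for not changed; black bars mark list medians and dashed lines the fold change minimum of 0.58. Of the 15 folding genes 14 points lie to the left of 0, with a list median of -0.34 and 1 blue point.

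The other actins were low. Of 5 genes 2 passed the filter on low counts and neither was changed, and Acta1 was at 31.7 ± 9.78 CPM in the young adult and 32.7 ± 8.45 CPM in the aged libraries (SD, 4 libraries per age), while Actc1 and Actbl2 had no count in any library. Of the other profilins and β-thymosins 4 of 6 were tested and none was changed. Tmsb15b2 (25.5 ± 3.17 and 22.2 ± 5.004 CPM; SD, 4 libraries per age) and Tmsb15l held equal counts in all 8 libraries, and their exons overlap. The chaperonin CCT and its partner prefoldin fold newly made actin and tubulin. The list of 15 folding genes held genes of CCT and of prefoldin and Pdcl3, a phosducin-like protein. Of these 14 had a negative log2FC, beside 4718 of all 9375 tested genes, and their median was -0.34. A padj of at most 0.05 was reached by 8 of them, all lower, beside 9.42% of all genes that were lower by this padj alone, and only Cct4 also passed the fold change minimum. The 8 became 5 with DESeq2 on either kind of counts, with library sizes alone, and in edgeR without young adult replicate 3, young adult replicate 4 or aged replicate 2. Cct4 fell from 167.6 ± 17.99 to 105.4 ± 14.1 CPM (SD, 4 libraries per age; log2FC -0.65, SE 0.131, padj = 0.00106 from edgeR) and dropped under the minimum without aged replicate 1 (log2FC -0.58) and with library sizes alone (log2FC -0.54). Pfdn5, the most abundant of the list, had 768.4 ± 11.03 and 608.4 ± 82.2 CPM (SD, 4 libraries per age; log2FC -0.34, padj = 0.0105 from edgeR), and with DESeq2 on quantile-normalized counts its log2FC was -0.21 (padj = 0.116). The summed level of the list was 3351 to 3532 CPM in the young adult and 2545 to 2871 CPM in the aged libraries.

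The regulators of cofilin and of filament disassembly had 2 genes changed and higher and 1 changed and lower among 20 tested. Coro2b, a coronin, rose from 36.9 ± 9.52 to 79.4 ± 25.3 CPM (SD, 4 libraries per age; log2FC 1.05, SE 0.221, padj = 0.00145 from edgeR). Another coronin, Coro1c, rose from 16.3 ± 2.52 to 30.6 ± 7.85 CPM (log2FC 0.86, padj = 0.0191 from edgeR), but its padj was over 0.05 with DESeq2 on the raw counts (0.061) or on quantile-normalized counts (0.101) and from edgeR without young adult replicate 1 (log2FC 0.79), young adult replicate 3 (log2FC 0.83) or aged replicate 3 (log2FC 0.80). Rock2, a kinase upstream of cofilin phosphorylation, fell from 18.9 ± 8.47 to 8.10 ± 3.01 CPM (log2FC -1.24, padj = 0.0171 from edgeR). With a mean of 11 counts, it lost this call without young adult replicate 1 (log2FC -1.19), young adult replicate 3 (log2FC -0.92) or aged replicate 4 (log2FC -1.06). Pdxp, the phosphatase chronophin that activates cofilin, had the highest count of the list, at 193.6 ± 10.6 CPM at 6m against 284.2 ± 39.8 CPM at 24m (SD, 4 libraries per age). Its log2FC of 0.54 (padj = 0.00118 from edgeR) was under the fold change minimum. It passed this minimum without aged replicate 2 (0.59) or aged replicate 4 (0.60), with library sizes alone (0.64) and with more than 5 counts in every library (0.59).

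The Arp2/3 complex, which starts branched filaments, had all 10 genes tested and 1 changed. This was Arpc5, which rose from 30.0 ± 3.44 to 58.4 ± 14.2 CPM (SD, 4 libraries per age; log2FC 0.98, SE 0.194, padj = 0.000798 from edgeR), with all aged libraries above all young adult ones. Such a separation, in either direction, was seen in 21.1% of all tested genes. The most abundant subunit, Arpc1a, had 350.6 ± 21.7 and 306.6 ± 38.6 CPM (padj = 0.205 from edgeR). Among the 11 tested activators of the complex, Wipf3 was changed (16.7 ± 3.83 to 31.9 ± 9.84 CPM; SD, 4 libraries per age; log2FC 0.93, padj = 0.0138 from edgeR). It lost this call without aged replicate 3 (log2FC 0.77, padj = 0.0621 from edgeR) and with DESeq2 on quantile-normalized counts (padj = 0.072). Brk1, a small subunit of the WAVE complex, had a log2FC of 0.37 (padj = 0.013 from edgeR), under the fold change minimum. None of the 14 tested formins and Ena/VASP genes was changed, and Evl, the most abundant, had 210.0 ± 32.0 and 182.9 ± 9.68 CPM (SD, 4 libraries per age; padj = 0.272 from edgeR).

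Genes for capping and severing had 2 of 13 changed, both higher (15.4% changed, beside 14.5% of all tested genes). Add1, an adducin, rose from 112.5 ± 17.4 to 181.3 ± 8.46 CPM (SD, 4 libraries per age; log2FC 0.67, SE 0.126, padj = 0.000494 from edgeR). Capza2, a capping protein subunit, had a log2FC of 0.65 (padj = 0.0219 from edgeR), which was lost without young adult replicate 1 (0.58) or 4 (0.51) and aged replicate 2 (0.60) or 4 (0.58) and with DESeq2 on the raw counts (padj = 0.0543) or on quantile-normalized counts (log2FC 0.59, padj = 0.0823). Its partner Capzb, the most abundant of the list, had 226.6 ± 31.1 and 230.2 ± 16.3 CPM (SD, 4 libraries per age; padj = 0.92 from edgeR).

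Of the 24 tested cross-linkers and filament binders, the longest list, 4 were changed, all of them higher. This is 16.7%, beside 14.5% of all tested genes. Ppp1r9b, the spine protein spinophilin, rose from 84.8 ± 28.3 to 224.7 ± 53.6 CPM (SD, 4 libraries per age; log2FC 1.38, SE 0.184, padj = 7.37e-06 from edgeR). Sptb, a β-spectrin, rose from 9.88 ± 4.22 to 24.3 ± 4.24 CPM (log2FC 1.27, padj = 0.00575 from edgeR). With a mean of 14.5 counts, Sptb did not pass the filter of more than 5 counts in every library. Synpo, synaptopodin of the spine apparatus, rose from 19.1 ± 2.83 to 36.1 ± 8.97 CPM (log2FC 0.87, padj = 0.0138 from edgeR), with a padj of 0.0508 from DESeq2 on quantile-normalized counts. In these 3 genes the aged libraries did not overlap with the young adult ones, which was the case in either direction for 21.1% of all tested genes. The 3 were named for the largest log2FC among the changed genes of the list, so their separation is no independent result. The most abundant gene, Tagln3, had 634.3 ± 25.1 and 616.4 ± 55.0 CPM (SD, 4 libraries per age; padj = 0.763 from edgeR).

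Of the 13 tropomyosins and non-muscle myosins, Myo5a, a vesicle motor, was changed and lower (46.1 ± 17.8 to 27.2 ± 4.53 CPM; SD, 4 libraries per age; log2FC -0.82, padj = 0.0132 from edgeR). Its padj was over 0.05 without young adult replicate 3 (log2FC -0.56) or aged replicate 2 (log2FC -0.74). The light chain Myl6, the most abundant, had 974.7 ± 38.5 and 769.5 ± 107 CPM (SD, 4 libraries per age; log2FC -0.35, padj = 0.0102 from edgeR), and with DESeq2 on quantile-normalized counts its log2FC was -0.15 (padj = 0.285). No change was called among the 7 actin-modifying enzymes, where Mical2 had 233.3 ± 15.97 and 216.3 ± 11.2 CPM (SD, 4 libraries per age).

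Markers of the cells in the tissue were measured beside these genes. Over all tested genes, 10.3% were changed and higher and 4.17% changed and lower. Of 6 tested astrocyte markers 3 were changed and higher and 2 changed and lower. Of 6 oligodendrocyte markers 2, and of 10 tested microglial markers 3, were changed and higher. No marker of smooth muscle and pericytes (3 tested), endothelial cells (3), immature neurons (2) or choroid plexus (4) was changed, and Dcx, which marks immature neurons, had no count in any library. All 5 blood genes were changed and lower. Actb, Tmsb4x, Cfl1 and Pfn1 are known for high levels in microglia, whose summed markers were 876 to 931 CPM at 6m and 1087 to 1370.3 CPM at 24m, and the part of this in their levels was not tested.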

How the data were processed

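The deposited table holds unnormalized read counts for each gene in 1 column per mouse. By the study's methods, the authors ran direct RNA sequencing (MinION), aligned reads to GRCm39 by minimap2 (version 2.24 in the submitters' processing notes) and counted them on genes with featureCounts. The strand, overlap and multi-mapping settings are not given in the sources used here. Columns were mapped to ages by the sample labels.

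Of the 22430 genes, 22281 were matched by Ensembl identifier to GENCODE vM39 (same build), the source of symbols, positions, lengths and sequences. Near-identical copies were searched with BLAST+ 2.17.0. In R 4.3.3, edgeR 4.0.16 was run with TMM factors, age as the only term and a mean count over 5. The alternatives were DESeq2 1.42.0 on raw and quantile-normalized counts, RLE factors, no scaling factor, removal of mitochondrially encoded genes, no filter, more than 5 counts in every library, padj alone, a replicate block and each library left out. Adding Tmsb10b to Tmsb10 was chosen after seeing the data. CPM use TMM-scaled library sizes, and log2 CPM a prior count of 2. Ratios and shares were tested by exact permutation over the 70 assignments. The scripts were tested on simulated data. P-values measure the spread between mice of 1 cohort per age.

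The members and lists were chosen with earlier results of these data known. Named genes are the members, up to 3 changed genes with the largest absolute log2FC and the most abundant gene of each list, and the 2 genes most alike to each member. Dstn is named beside the cofilins in addition. Marker lists are given by their counts. The genes of 1 actin list are counted in the totals but not reported here.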

Additional observations from a re-analysis of the deposited data

Results flagged for a closer look

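In each age group, the 4 libraries were compared by Dixon's criterion (95 percent level), which divides the distance of the extreme library to its neighbour by the span of the group. It was applied to the CPM of the 8 genes, the 4 log2 ratios, the summed share and the library totals, 28 groups in all, and 3 exceeded the limit, while chance gives about 1 in 20. Actg1 was highest in young adult replicate 2, at 1763 CPM against 1495 to 1534 CPM in the other young adult libraries. Pfn2 was lowest in young adult replicate 1, at 89.9 CPM against 133.1 to 139.4 CPM. The total of young adult replicate 2, 573152 counts, lay below the 818963 to 843706 counts of the others of its age. Without that library the log2FC of Actg1 was 0.27 (padj = 0.058 from edgeR).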

How the results depend on the processing

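Over the 17 alternatives, Pfn2 stayed changed and Actg1, Pfn1, Cfl1, Cfl2, Actb and Tmsb4x stayed not changed, while the sign of the last 4 turned in some. Tmsb10 (log2FC -0.44) counted as changed once the fold change minimum was dropped, a setting that could not alter the call of Pfn2. The sign of Tmsb4x turned with DESeq2 on raw (0.0011) and quantile-normalized counts (0.21), RLE factors (0.00038), library sizes alone (0.10), removal of mitochondrially encoded genes (0.0046), no filter (0.012) and more than 5 counts in every library (0.044). Actb turned with DESeq2 on quantile-normalized counts (0.051). With 1 library left out at a time, the log2FC ranged from -0.25 to 0.0037 for Actb, -0.012 to 0.034 for Cfl1, -0.039 to 0.21 for Cfl2 and -0.040 to 0.032 for Tmsb4x, and the log2 ratio of Cfl1 to Cfl2 differed by -0.21 to 0.048. Among other genes, such ranges were -0.17 to 0.22 for Acta1, -0.068 to 0.090 for Capzb and -0.085 to 0.025 for Tagln3. Quantile-normalized counts turned Acta1 (-0.041) and Tagln3 (0.058), and Tagln3 also turned with library sizes alone (0.058) and more than 5 counts in every library (9.8e-05). DESeq2 called 834 genes changed on raw and 824 on quantile-normalized counts. Of the actin lists, 23 genes were changed with library sizes alone, 23 with no filter and 35 with padj alone, and 12 to 19 with 1 library left out. The difference in the summed share was 0.0178 percentage points without mitochondrially encoded genes. The cause of these shifts was not tested.

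Same-numbered libraries did not deviate together (correlations 0.065, -0.010, 0.0051 and -0.16), so the numbers were not taken as pairs. With a replicate block, 1308 genes were changed, Pfn2 had a log2FC of 0.91, and the share difference of 0.0349 gave p = 0.125 by an exact sign-flip test, the smallest value 4 pairs allow. The block changed no other call of a member. At these depths Cfl2, with 29 to 80 counts, had the widest interval of the 8 genes.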
